A study of Mus musculus with 16 samples.

Results

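The genes described here are 48 genes of the G2/M transition and mitosis, a fixed list of symbols. The list was chosen with earlier results of these data known. Its genes were found by Ensembl identifier among the 55414 identifiers of the count table. All 48 were matched, and all 48 were among the 18878 identifiers tested, those whose counts averaged 10 or more. RNA came from leukaemia-propagating cells, the leukaemic cells held to carry the disease on, in mice that model acute lymphoblastic leukaemia of infants at the pro-B stage. The cells were sorted from bone marrow (BM) or from the central nervous system (CNS) by surface proteins. The LSK fraction was negative for lineage markers and positive for Sca1, cKit and IL7R, and the LK fraction, also named CLP in the labels, was negative for lineage markers and Sca1 and positive for cKit. Tissue and fraction together made 4 groups of 4 bulk libraries, named BM LSK, BM LK, CNS LSK and CNS LK. Every library carried the same genotype, the Kmt2a-AFF1 fusion together with overexpression of the microRNA miR-128a, and the labels name no agent. No library here shows these genes without the fusion or at an ordinary level of miR-128a. What drives the fusion and the microRNA, the age of the mice, and whether mice were pooled are not given in the sources used here.

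Entry into mitosis is driven by cyclin-dependent kinase 1 bound to cyclin A or B, with the kinases Plk1 and Aurora A acting beside it. The spindle is then built by kinesin motors and microtubule-binding proteins, kinetochores attach chromosomes to it, and the spindle checkpoint holds the cell until the attachments are made. The anaphase-promoting complex, with its activator Cdc20 and its ubiquitin-conjugating enzyme Ube2c, then marks securin and cyclin B for destruction, and the central spindle proteins direct cytokinesis. Transcripts of most of these genes are made late in the cell cycle, under NF-Y, which binds CCAAT boxes, and under the MuvB complexes with B-Myb and FoxM1, which bind the element called CHR, with the letters TTTGAA. These transcripts are widely used to mark dividing cells, and in blood precursors and leukaemias they vary with the share of cells in cycle.

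Library totals ran from 19.2 to 29.2 M counts, and the 48 genes held between 0.365% and 0.651% of them. Levels are given as CPM, the counts divided by the TMM-scaled library total in M, which are not corrected for gene length, so they are compared between libraries and not between genes. A BM and a CNS library with the same LPC type and number share a code in their descriptions apart from its last letter. These 8 codes are called stems here, LSK 1 to 4 and LK 1 to 4. The LSK and LK codes of a number begin with the same digits. What a stem or a number stands for is not stated in the labels, so the p-values measure the spread between these libraries. The fit of all 16 libraries counts the BM and CNS library of a stem as independent. Of the markers of the pro-B label, Rag1 stood at 259 to 291 CPM and Dntt at 42.7 to 117 CPM as group means, while Cd79a, Cd79b, Pax5, Ebf1, Vpreb1, Igll1 and Rag2 had group means of at most 1.24 CPM. These B-lineage markers were therefore at or near 0 in all 4 groups. A list of 10 T and NK cell genes summed to between 154 and 204 CPM in the libraries, most of it Trbc2 and Gzma. As group means, Cd4 stood at 7.34 to 10.2 CPM and Cd8a at 5.14 to 6.93 CPM. Cd3e had group means of at most 0.424 CPM, and Cd3d, Cd3g, Trac, Nkg7 and Klrb1c of at most 0.853 CPM.

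Because the late cell cycle genes are grouped by shared promoter elements, the promoters of 4 members whose transcripts rose in LSK are shown first, Ube2c, Kpna2, Cenpf and Ccnb1. The letters come from RefSeq on build GRCm38.p6, each read on the gene's own strand from 250 bases before the annotated start to 20 bases after it. The windows are chr2:164769679-164769948, plus strand, for Ube2c, chr11:106999506-106999775, minus strand, for Kpna2, chr1:189688067-189688336, minus strand, for Cenpf, and chr13:100786467-100786736, minus strand, for Ccnb1. Capitals mark the letters CCAAT or TTTGAA on either strand, so that ATTGG and TTCAAA are also in capitals.
Ube2c: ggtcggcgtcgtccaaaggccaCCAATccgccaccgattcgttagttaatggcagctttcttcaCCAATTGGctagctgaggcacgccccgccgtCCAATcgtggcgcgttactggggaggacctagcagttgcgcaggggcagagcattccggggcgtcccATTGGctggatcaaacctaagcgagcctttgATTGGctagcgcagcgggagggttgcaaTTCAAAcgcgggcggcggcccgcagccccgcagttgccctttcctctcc
Kpna2: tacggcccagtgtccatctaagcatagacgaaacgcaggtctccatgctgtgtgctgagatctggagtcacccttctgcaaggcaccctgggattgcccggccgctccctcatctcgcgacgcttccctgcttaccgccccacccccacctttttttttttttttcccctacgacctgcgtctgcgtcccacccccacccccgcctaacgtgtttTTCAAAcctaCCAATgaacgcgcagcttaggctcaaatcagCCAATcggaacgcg
Cenpf: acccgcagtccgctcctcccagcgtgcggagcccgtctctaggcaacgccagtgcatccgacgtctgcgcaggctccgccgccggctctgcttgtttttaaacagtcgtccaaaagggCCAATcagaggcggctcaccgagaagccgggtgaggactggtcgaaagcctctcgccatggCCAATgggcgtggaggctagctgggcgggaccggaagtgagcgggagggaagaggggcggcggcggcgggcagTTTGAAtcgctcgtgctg
Ccnb1: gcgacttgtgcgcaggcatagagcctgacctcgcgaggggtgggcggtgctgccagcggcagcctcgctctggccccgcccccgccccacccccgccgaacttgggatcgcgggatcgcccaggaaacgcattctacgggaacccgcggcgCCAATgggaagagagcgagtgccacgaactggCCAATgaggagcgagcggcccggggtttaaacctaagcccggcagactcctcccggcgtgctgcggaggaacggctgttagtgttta
The Ube2c window held 6 matches to CCAAT, of which 1 pair on opposite strands overlaps, and 1 match to TTTGAA on the opposite strand, beginning 29 bases before the start. Kpna2 had 2 matches to CCAAT and 1 to TTTGAA, and Cenpf had the same numbers. In Ccnb1 the 2 matches to CCAAT began 99 and 67 bases before the start, and these letters of TTTGAA were not in the window.

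Promoters on chromosome 18 were left out of the search. The rest of the RefSeq table held 45 promoter entries, each of 300 bases, for 41 of the 48 members. Of these members, 17 were among the 20 that rose in LSK. CCAAT was found in 40 of the 45 entries, or 88.9%, against 37.4% of all 32851 promoters searched. At least 2 matches to CCAAT were present in 62.2% of the members' entries and in 11.7% of all promoters. TTTGAA was found in 73.3% of the members' entries and in 17.9% of all promoters. Both motifs together were in 68.9% of the members' entries against 6.95% of all promoters. Of the 18 entries of members that rose in LSK, 77.8% had both motifs, and of the 27 entries of the other members, 63.0% had both. This difference was not tested, and the other members were higher in LSK as well, without passing. Entries are not genes, since the 45 entries cover 41 members. Both strands were searched, and a match describes letters in the window and not a bound site.

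LSK and LK cells were first compared over both niches, which asks how the 2 LPC types differ in the same tissues. The G2/M and mitosis genes were higher in LSK. All 48 had a positive log2 change, with a median of 0.42 and a range from 0.021 for Smc4 to 0.90 for Psrc1. Of all tested identifiers 46.8% were positive, with a median of -0.011. By edgeR's quasi-likelihood test with Benjamini-Hochberg adjustment over all tested identifiers, 20 of the 48 rose in LSK at an adjusted p under 0.05 and 0 fell. Of all tested identifiers 0.238% passed, and 0.228%, or 43 identifiers, passed as higher in LSK. At an unadjusted p under 0.05, 45 of the 48 were higher in LSK, against 7.53% of all tested identifiers. The members that rose did so by between 1.32-fold (Mki67) and 1.65-fold (Ube2c). In bulk libraries a larger share of cells in G2 and mitosis and more of these transcripts in each such cell cannot be told apart.

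The calls were lost when the libraries of a stem were combined. With the counts of the BM and CNS libraries of each stem summed, which leaves 4 LSK against 4 LK, 0 of the 48 members and 0% of all identifiers passed by edgeR with adjustment, and the smallest adjusted p among the members was 0.0624, for Ube2c. In that fit 44 of the 48 had an unadjusted p under 0.05 in the direction of LSK, against 7.33% of all identifiers. With stem as a random block in limma, with a fitted correlation of 0.26 between the libraries of a stem, 5 members passed. Leaving out single libraries moved the count from 20 to as few as 8, without CNS LSK 1 or CNS LK 3, and to as many as 40, without CNS LSK 2. It was 9 without CNS LSK 3 or BM LK 4, 10 without BM LSK 1 or BM LK 1, 11 without CNS LK 1, 13 without BM LK 2 or CNS LK 2, and 30 without BM LSK 2 or CNS LK 4. Leaving out all 4 libraries of a number gave 0 calls without number 1, 1 without number 3, 7 without number 4 and 32 without number 2. The direction held in every such fit for all members but Smc4. For the random block, the left-out libraries and the covariate fit below, the shares of all identifiers called are not given here. Libraries also differed in how many identifiers had a count, with medians of 40910 in BM LSK, 43902 in CNS LSK, 38683 in BM LK and 39192 in CNS LK, and with the log2 of that number as a covariate 12 members passed. Of 34 tested markers in 8 cell type lists, 22 were higher in LSK and 0 passed by edgeR. At an unadjusted p under 0.05, 4 of the 34 were higher and 1 lower in LSK. Of all identifiers 46.8% were higher in LSK, and 7.53% were higher and 4.59% lower at that p. Summed over its list, T and NK cell markers held 154 to 204 CPM in LSK and 157 to 197 CPM in LK libraries, endothelial markers 62.6 to 106 CPM in LSK and 77.1 to 104 CPM in LK, and the other non-lymphoid lists lower levels. The part of these markers in the members' values was not tested.

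**Figure D1:**
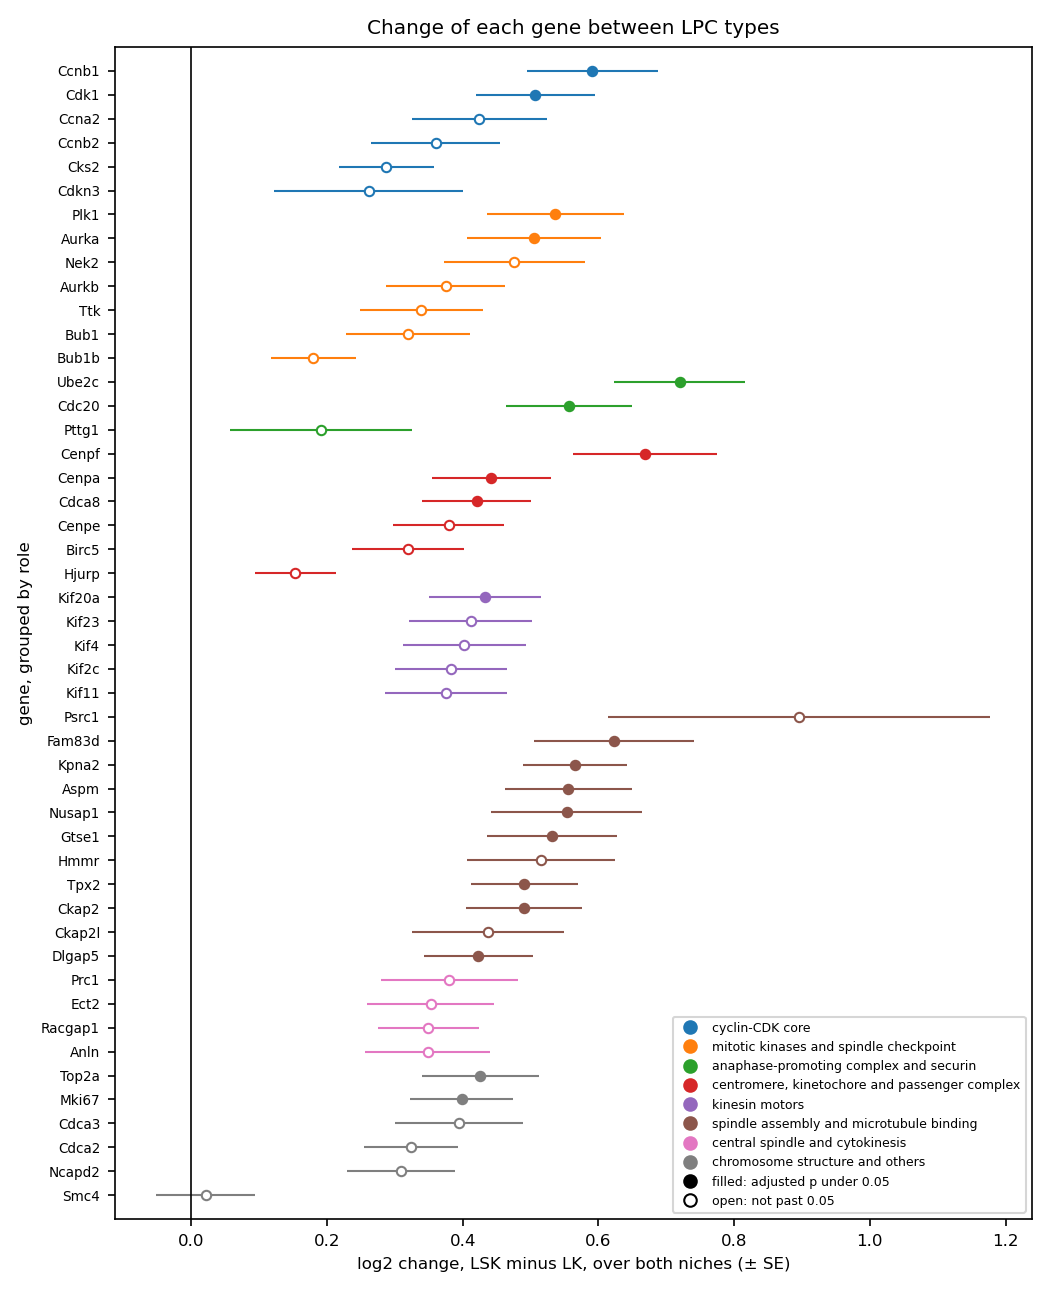
The plot of changes shows the log2 change from LK to LSK over both niches (x axis) for each of the 48 genes (y axis, grouped by role), as a point with its standard error. Every point lies to the right of 0, from 0.02 for Smc4 to 0.90 for Psrc1, and the 20 genes at an adjusted p under 0.05 are drawn as filled points, the others as open ones.

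How far the libraries themselves separated varied among the members. In 6 of the 48, Ube2c, Cdca8, Fam83d, Gtse1, Aspm and Kpna2, all 8 LSK libraries lay above all 8 LK libraries, a separation seen in 0.0742% of all tested identifiers, or 14 of them. In 29 of the 48, the 4 LSK stem means lay above the 4 LK stem means, against 3.2% of all identifiers. Ube2c was the member that passed in most alternative fits, 36 of 39, followed by Kpna2 with 35 and by Cenpf and Ccnb1 with 32 each. Of these 39 fits, 28 repeat the main fit with libraries left out, so the counts are not independent support. With stems summed, 0 of the 48 passed. Cdkn3, Bub1b, Pttg1, Hjurp and Smc4 passed in 0 of the 39, and Psrc1 in 0 of the 38 that tested it.

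**Figure D2:**
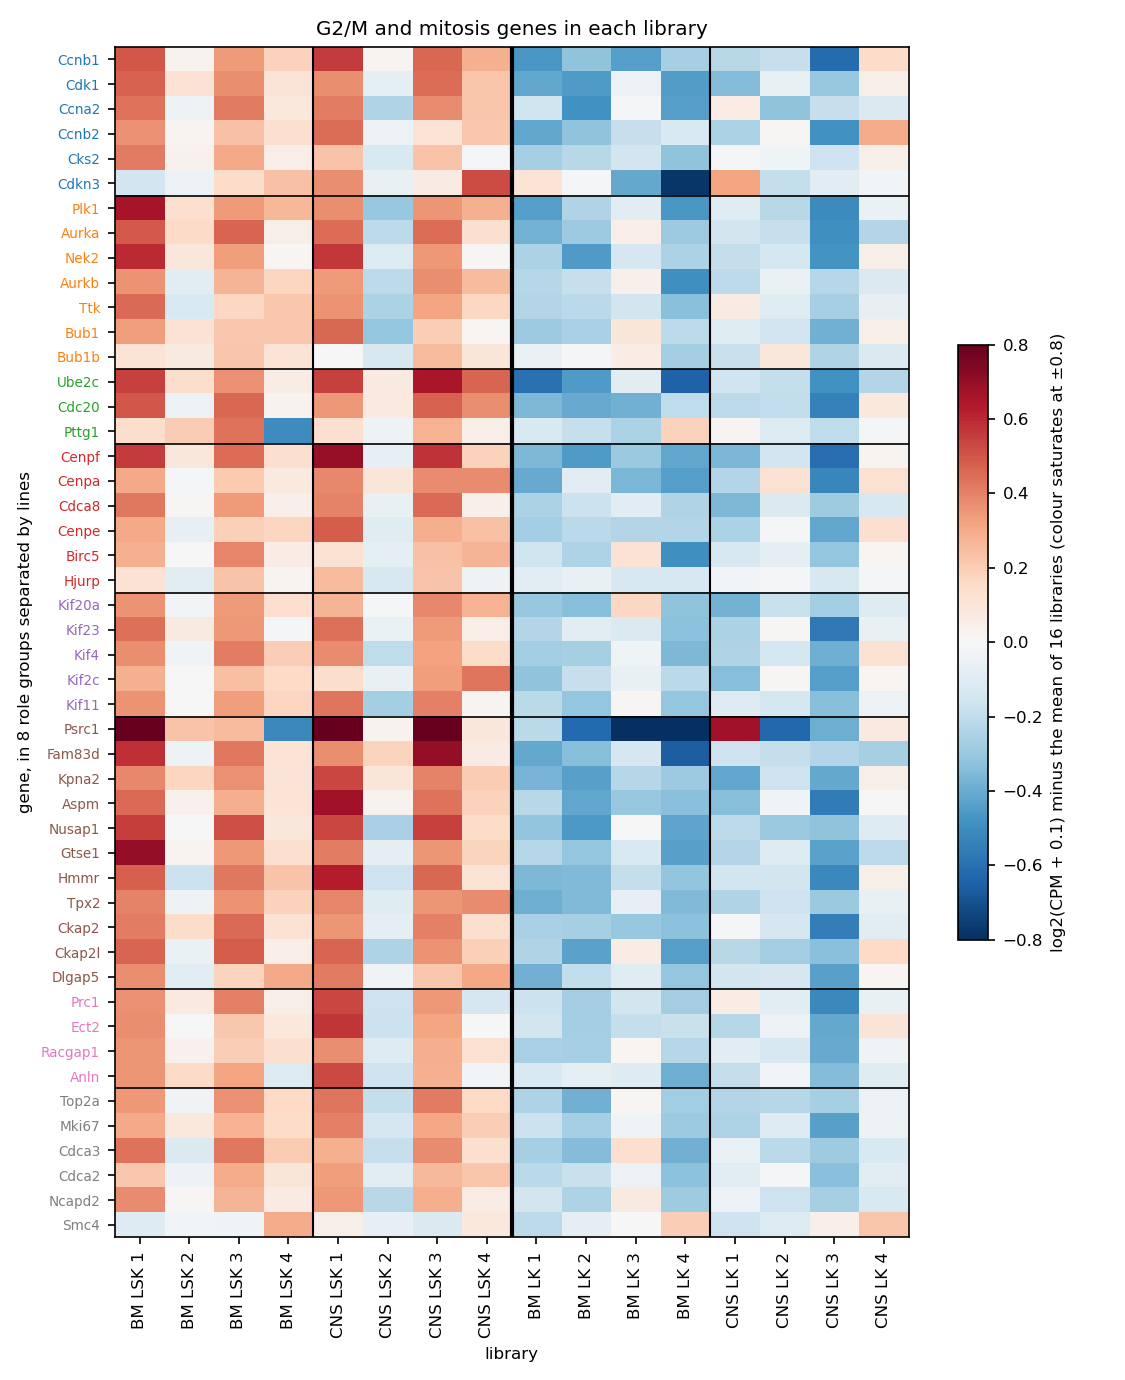
The heatmap gives each gene's log2 level (rows) in each of the 16 libraries (columns), computed as log2 of CPM plus 0.1 and centred on that gene's mean, with colours cut at 0.8 in either direction. The columns of LSK stems 1 and 3 are the most uniformly high, those of LSK 2 lie near the gene means, and most LK columns lie below them.

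For LSK against LK over both niches, here and below, genes that rose or passed did so in the fit of all 16 libraries. That fit counts the BM and CNS library of a stem as independent, and with stems summed 0 of the 48 passed. Of the cyclins and partners of CDK1, 2 of 6 rose in LSK, Ccnb1 and Cdk1, and the median change was 0.39. Ccnb1 encodes cyclin B1, the cyclin that drives mitotic entry. It stood at 47.3, 34.2, 42.6 and 38.1 CPM in BM LSK libraries 1 to 4 and at 49.5, 34.1, 46.2 and 40.9 CPM in CNS LSK. Its levels were 24.3, 26.9, 24.7 and 28.0 CPM in BM LK and 28.7, 29.5, 21.8 and 37.1 CPM in CNS LK. The 8 LSK libraries lay above 7 of the 8 LK libraries, and CNS LK 4, at 37.1 CPM, lay above both libraries of LSK 2. On the log2 scale it rose by 0.59 ± 0.097 (SE), at an adjusted p of 0.0117 by edgeR's quasi-likelihood test. Cdk1, the kinase itself, rose by 0.51 ± 0.088 (SE), with an adjusted p of 0.0160 by edgeR. Processed copies of Ccnb1 with over 97% identity (Ccnb1-ps, Gm12856 and Gm8416) had 0.0333 to 0.188 times its count, so its values may hold reads of these copies.

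Ccna2 encodes cyclin A2, which acts in S phase and early mitosis. In BM LSK it stood at 86.4, 62.1, 85.2 and 67.8 CPM and in CNS LSK at 84.9, 54.1, 83.0 and 74.5 CPM. LK libraries gave 57.2, 45.6, 63.5 and 47.1 CPM in BM and 66.5, 51.1, 56.1 and 58.9 CPM in CNS. The groups overlapped, because both libraries of LSK 2 lay below the highest LK library, and the change of 0.42 ± 0.099 (SE) had an adjusted p of 0.0860 by edgeR. Its annotated transcripts share 431 bases with Exosc9 in a search of both strands, and whether reads there could count for either gene was not tested. Ccnb2 differed by 0.36 ± 0.095 (SE, adjusted p = 0.123, edgeR) and Cks2, a small CDK-binding subunit, by 0.29 ± 0.070 (SE, adjusted p = 0.101, edgeR). Cdkn3, a phosphatase that acts on CDKs, had fewer counts, a mean of 96.6, and differed by 0.26 ± 0.14 (SE, adjusted p = 0.470, edgeR).

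Among the mitotic kinases and the spindle checkpoint, 2 of 7 rose, Plk1 and Aurka, with a median of 0.37 over the group. Plk1 acts from centrosome maturation to cytokinesis. Its levels were 51.4, 35.5, 41.1 and 39.1 CPM in BM LSK and 42.1, 26.3, 41.5 and 39.6 CPM in CNS LSK. In LK they were 23.9, 27.4, 30.6 and 23.5 CPM in BM and 30.4, 27.9, 22.8 and 31.4 CPM in CNS. CNS LSK 2 was the lowest LSK library and lay within the LK range, while the stem means did not overlap. Plk1 rose by 0.54 ± 0.10 (SE), at an adjusted p of 0.0299 by edgeR. Aurka, encoding Aurora A, rose by 0.50 ± 0.099 (SE) with an adjusted p of 0.0374 by edgeR. Aurkb, the kinase of the chromosomal passenger complex, differed by 0.37 ± 0.088 (SE, adjusted p = 0.0860, edgeR), and Nek2, a centrosomal kinase, by 0.48 ± 0.10 (SE, adjusted p = 0.0647, edgeR). The checkpoint kinases Ttk and Bub1 differed by 0.34 ± 0.090 (SE) and 0.32 ± 0.091 (SE), with adjusted p of 0.127 and 0.172 by edgeR.

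Bub1b, the checkpoint protein BubR1, had the smallest difference of that group. BM LSK libraries held 193, 188, 209 and 193 CPM and CNS LSK libraries 179, 164, 213 and 191 CPM. BM LK libraries held 173, 177, 187 and 149 CPM and CNS LK libraries 158, 191, 151 and 166 CPM. The ranges overlapped widely, 164 to 213 CPM in LSK and 149 to 191 CPM in LK. The difference was 0.18 ± 0.063 (SE) with an adjusted p of 0.264 by edgeR.

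Ube2c, the ubiquitin-conjugating enzyme of the anaphase-promoting complex, whose promoter is printed above, had the smallest p of all 48 members. It stood at 45.8, 34.5, 40.4 and 32.6 CPM in BM LSK and 45.8, 32.9, 49.3 and 43.2 CPM in CNS LSK. LK libraries held 20.6, 22.8, 29.4 and 19.9 CPM in BM and 28.0, 27.4, 22.3 and 26.5 CPM in CNS. All 8 LSK libraries, from 32.6 CPM upward, lay above the highest LK library, at 29.4 CPM. Ube2c rose by 0.72 ± 0.097 (SE) on the log2 scale, 1.65-fold, with an adjusted p of 0.00248 by edgeR's quasi-likelihood test, and this p ran from 1.09e-08 to 0.164 over the 39 alternatives. Cdc20, the activator that brings substrates to the complex, rose by 0.56 ± 0.093 (SE) with an adjusted p of 0.0136 by edgeR. Pttg1, encoding securin, the guard of separase, did not pass, with 0.19 ± 0.13 (SE) and an adjusted p of 0.602 by edgeR on a mean of 70.9 counts.

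In the centromere, kinetochore and passenger group 3 of 6 rose, Cenpf, Cdca8 and Cenpa, and the median was 0.40. Cenpf, a large kinetochore-associated protein that accumulates in G2, had the smallest p of its group. BM LSK libraries held 281, 202, 259.8 and 208 CPM and CNS LSK libraries 309, 182, 284 and 216 CPM. BM LK held 148, 139, 155 and 143 CPM and CNS LK 148, 171, 125 and 194 CPM. Only CNS LK 4, at 194 CPM, lay within the LSK range, which began at 182 CPM. Cenpf rose by 0.67 ± 0.11 (SE), 1.59-fold, with an adjusted p of 0.0117 by edgeR. Cdca8, encoding borealin of the passenger complex, rose by 0.42 ± 0.080 (SE) without overlap between the 8 LSK and the 8 LK libraries, with an adjusted p of 0.0299 by edgeR. Cenpa, the histone variant of centromeres, rose by 0.44 ± 0.088 (SE, adjusted p = 0.0377, edgeR). Birc5, or survivin, differed by 0.32 ± 0.083 (SE, adjusted p = 0.114, edgeR), and the kinetochore motor Cenpe by 0.38 ± 0.082 (SE, adjusted p = 0.0620, edgeR). Hjurp, the chaperone that loads Cenpa, showed the smallest difference of the group, 0.15 ± 0.059 (SE), with an adjusted p of 0.314 by edgeR.

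The 5 kinesin motors differed by nearly the same amount, from 0.38 for Kif11 to 0.43 for Kif20a, and 1 of them, Kif20a, passed. Kif20a, a motor of the central spindle, stood at 45.6, 35.0, 44.9 and 39.0 CPM in BM LSK and 42.8, 35.3, 46.3 and 42.9 CPM in CNS LSK. In LK it stood at 28.7, 28.0, 39.8 and 28.4 CPM in BM and 27.2, 31.4, 29.2 and 33.1 CPM in CNS. BM LK 3, at 39.8 CPM, was the only LK library within the LSK range. Kif20a rose by 0.43 ± 0.083 (SE), at an adjusted p of 0.0299 by edgeR. Annotated transcripts of Kif20a share 979 bases with Cdc23 in a search of both strands, and whether its count holds reads of that gene was not tested.

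Kif11 is the motor that pushes spindle poles apart. It stood at 175, 137, 172 and 154 CPM in BM LSK and 184, 113, 181 and 138 CPM in CNS LSK. LK libraries held 117, 110.1, 137 and 110.1 CPM in BM and 127, 124, 108 and 132 CPM in CNS. Both libraries of LSK 2 lay within the LK range, and the difference of 0.38 ± 0.090 (SE) had an adjusted p of 0.0940 by edgeR. Kif23, Kif2c and Kif4 differed by 0.41, 0.38 and 0.40 on the log2 scale, with adjusted p of 0.0703, 0.0620 and 0.0734 by edgeR.

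The spindle assembly and microtubule-binding genes held the largest share of calls, 8 of 11, with a median change of 0.53. Those that passed were Tpx2, Nusap1, Ckap2, Dlgap5, Fam83d, Gtse1, Aspm and Kpna2. Kpna2, an importin alpha that carries spindle factors such as Tpx2, stood at 103, 88.3, 101 and 84.3 CPM in BM LSK and 114, 84.1, 103 and 90.3 CPM in CNS LSK. In LK it stood at 60.7, 58.1, 67.0 and 64.1 CPM in BM and 58.8, 70.0, 59.2 and 81.2 CPM in CNS. The lowest LSK library, at 84.1 CPM, lay just above the highest LK library, at 81.2 CPM. Kpna2 rose by 0.56 ± 0.077 (SE), 1.48-fold, with an adjusted p of 0.00248 by edgeR in the fit of all 16 libraries. It did not pass with stems summed. It has near-identical copies, Gm10184 at 99.9% and Gm10259 at 99.8% identity, whose counts were 0.479 to 0.562 and 0.405 to 0.502 times its own, so how the reads were split among them is uncertain.

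Tpx2 activates Aurora A at the spindle. BM LSK libraries held 131, 96.6, 128 and 113 CPM and CNS LSK libraries 130.1, 93.0, 127 and 129 CPM. BM LK libraries held 75.8, 77.8, 94.7 and 77.6 CPM and CNS LK libraries 83.9, 88.5, 80.9 and 95.5 CPM. CNS LSK 2 lay below BM LK 3 and CNS LK 4, and the change of 0.49 ± 0.079 (SE) had an adjusted p of 0.0117 by edgeR. Fam83d, which helps chromosomes align, was at lower counts, a mean of 128. It stood at 7.97, 5.12, 7.11 and 5.69 CPM in BM LSK and 6.86, 5.98, 8.64 and 5.53 CPM in CNS LSK. The LK libraries held 3.94, 4.15, 4.79 and 3.31 CPM in BM and 4.70, 4.61, 4.47 and 4.38 CPM in CNS. No LSK library overlapped an LK library, although Fam83d passed in only 17 of the 39 alternative fits. Fam83d rose by 0.62 ± 0.12 (SE), at an adjusted p of 0.0299 by edgeR.

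The spindle pole protein Aspm ran from 95.5 to 149.6 CPM in LSK and from 63.5 to 93.8 CPM in LK, and rose by 0.56 ± 0.094 (SE, adjusted p = 0.0146, edgeR). Gtse1, a microtubule-binding protein made in G2, ran from 14.9 to 25.6 CPM in LSK and from 11.6 to 14.6 CPM in LK, and rose by 0.53 ± 0.096 (SE, adjusted p = 0.0203, edgeR). Neither gene had an LSK library at or below an LK library. Nusap1, Ckap2 and Dlgap5, which bind spindle microtubules, rose by 0.55, 0.49 and 0.42, with adjusted p of 0.0377, 0.0161 and 0.0299 by edgeR. Hmmr and Ckap2l had changes of similar size, 0.52 and 0.44, but adjusted p of 0.0591 and 0.111 by edgeR. Psrc1 had the largest fold of the 48, 0.90 ± 0.28 (SE), on a mean of 28.8 counts, and its adjusted p was 0.201 by edgeR.

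None of the 4 central spindle and cytokinesis genes passed, although all 4 had an unadjusted p under 0.05 in edgeR and their changes lay between 0.35 and 0.38. Racgap1, part of centralspindlin, stood at 80.8, 64.6, 72.3 and 69.2 CPM in BM LSK and 82.0, 58.7, 77.2 and 68.7 CPM in CNS LSK. The LK libraries held 52.7, 52.5, 64.0 and 54.0 CPM in BM and 59.3, 57.9, 47.7 and 62.1 CPM in CNS. CNS LSK 2 lay below CNS LK 1, BM LK 3 and CNS LK 4, and the difference of 0.35 ± 0.075 (SE) had an adjusted p of 0.0595 by edgeR. Prc1, the microtubule bundler, Ect2, the activator of RhoA, and Anln, or anillin, each had an adjusted p of 0.123 by edgeR. In a search of both strands Prc1 shares 670 transcript bases with Rccd1, and Kif4 shares 684 with Pdzd11. Whether either count holds reads of the other gene was not tested.

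Of the remaining 6 genes, which shape chromosomes or act around them, Mki67 and Top2a rose. Mki67 encodes Ki-67, the protein most used to stain cycling cells. It stood at 1421, 1218, 1396 and 1272 CPM in BM LSK and 1518, 1045, 1424 and 1319 CPM in CNS LSK. The LK libraries held 1022, 956, 1122 and 941 CPM in BM and 969.6, 1070.0, 850.3 and 1119 CPM in CNS. CNS LSK 2, the lowest LSK library, lay below the highest LK libraries. Mki67 rose by 0.40 ± 0.076 (SE), 1.32-fold, with an adjusted p of 0.0299 by edgeR. Top2a, the topoisomerase that untangles sister chromatids, rose by 0.43 ± 0.086 (SE, adjusted p = 0.0416, edgeR). Cdca2 and Cdca3 differed by 0.32 and 0.39, with adjusted p of 0.0595 and 0.0940 by edgeR. The 2 condensin subunits differed in size of change, 0.31 ± 0.080 (SE) for Ncapd2 (adjusted p = 0.114, edgeR) and 0.021 ± 0.073 (SE) for Smc4 (adjusted p = 0.939, edgeR), and this difference between the genes was not tested. Smc4 ran from 392 to 522 CPM in LSK and from 367 to 494 CPM in LK, and its sign turned in 7 of the 39 alternatives.

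**Figure D3:**
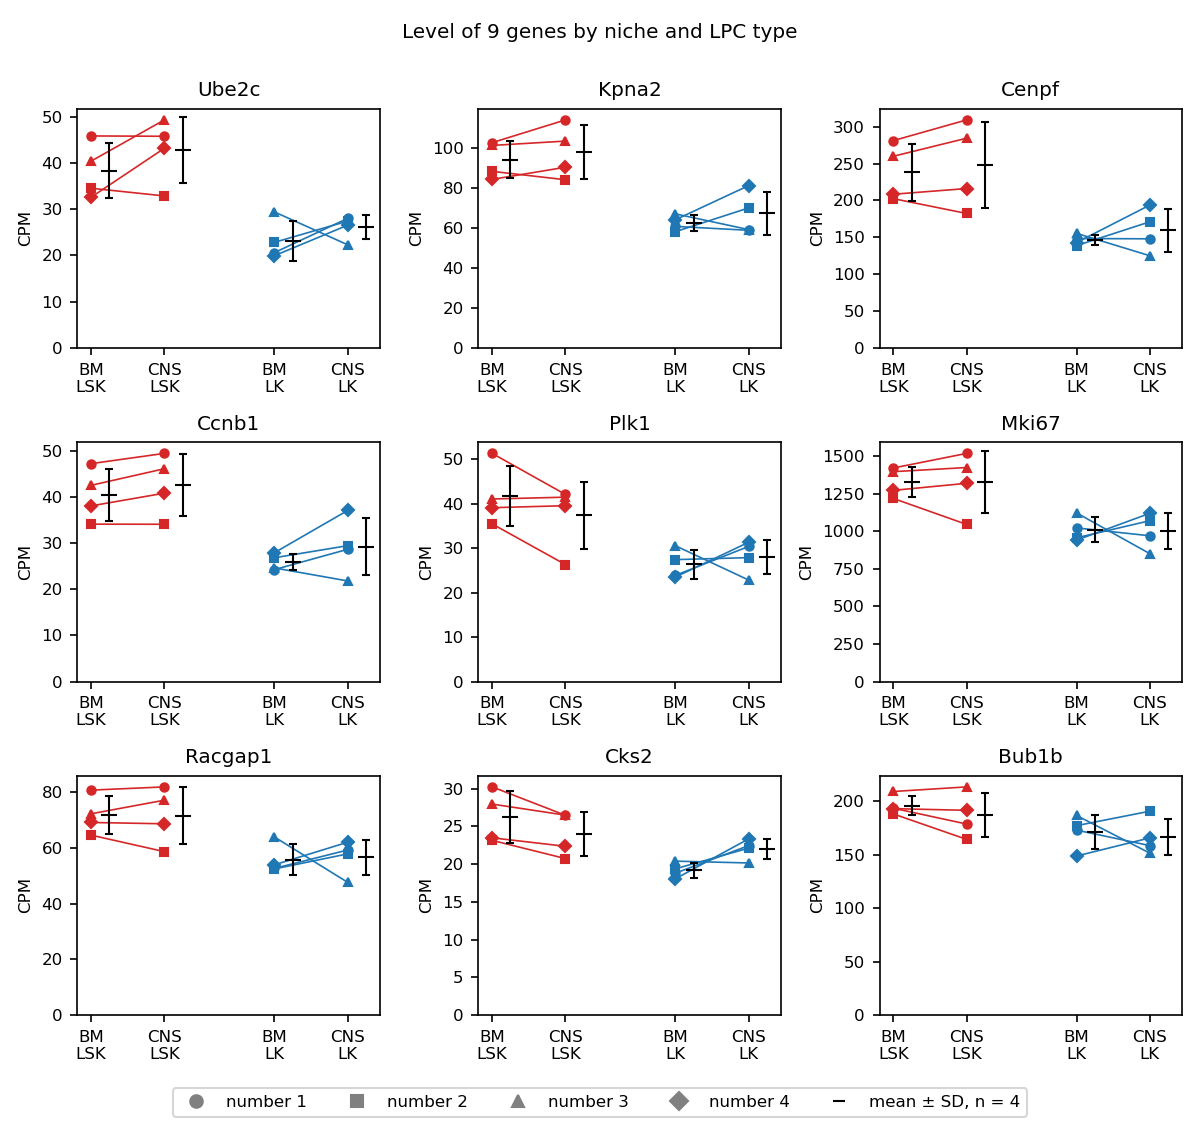
The plots of levels show CPM (y axis, from 0) of Ube2c, Kpna2, Cenpf, Ccnb1, Plk1, Mki67, Racgap1, Cks2 and Bub1b in the 16 libraries, by group (x axis), with a line joining the BM and CNS library of each stem and a black bar at each group's mean ± SD (n = 4). The LSK points of Ube2c lie at 32.6 CPM or more and its LK points at 29.4 CPM or less, while those of Bub1b overlap.

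The same comparison was made inside each tissue. Within BM, all 48 members were higher in LSK, against 48.6% of all identifiers, with a median of 0.45. By edgeR 0 members passed, as did 0% of all identifiers. At an unadjusted p under 0.05, 45 of the 48 were higher in LSK within BM against 3.89% of all identifiers, and the smallest adjusted p was 0.132, for Kpna2, at a change of 0.59 ± 0.11 (SE). DESeq2 called 14 members within BM and limma-voom 0. Within CNS, 47 of the 48 were higher in LSK, against 47.8% of all identifiers, with a median of 0.40 and Smc4 at -0.015. By edgeR 0 members passed there, against 0% of all identifiers. At an unadjusted p under 0.05, 38 of the 48 were higher in LSK within CNS against 4.25% of all identifiers. Ube2c had the smallest p there, with a change of 0.71 ± 0.14 (SE) and an adjusted p of 0.301 by edgeR. DESeq2 called 2 members within CNS and limma-voom 0. The shares of all identifiers that DESeq2 called within each tissue are not given here, so its counts do not show a change particular to the members.

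Other genes of the mitotic machinery were examined from 7 lists with 111 tested genes, and 96 of these were higher in LSK, with a median of 0.19. Of all identifiers 46.8% were higher in LSK, with a median of -0.011. By edgeR 11 of the 111 passed, all higher in LSK, against 0.228% of all identifiers. The 48 members and these lists held 31 of the 43 identifiers that passed as higher in LSK. Members and lists were chosen with earlier results of these data known, so this count is a description and not a test. In the list of other kinesins, spindle and cytokinesis genes, all 19 were higher and 7 passed, Kif18b (0.49), Kif20b (0.42), Kifc1 (0.44), Depdc1b (0.59), Arhgap11a (0.41), Pimreg (0.56) and Tubb4b (0.44, all log2 changes). The outer kinetochore and checkpoint list had 18 of 18 higher with 2 passing, Nuf2 (0.45) and Incenp (0.38). Cdc25b, a phosphatase that activates CDK1, rose by 0.33 and was the only 1 of 13 entry phosphatases and kinases to pass. Fzr1, the activator of the anaphase-promoting complex after mitosis, rose by 0.41, 1 of 18 in its list, whose median was 0.041. In the condensin, cohesin and chromatin list 14 of 14 were higher and 0 passed, with Hmgb2 at 0.36 (adjusted p = 0.0591, edgeR), and in the constitutive centromere list 12 of 14 were higher and 0 passed, 5 of them being higher at an unadjusted p under 0.05.

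The list of transcription factors that act on late cell cycle promoters, the MuvB and NF-Y subunits among them, had a median of 0.054, and 0 of its 15 tested genes passed. Foxm1 had the smallest p in it, with a change of 0.35 and an adjusted p of 0.134 by edgeR. A list of 40 S phase genes lay close to all identifiers, with 22 higher in LSK, a median of 0.021 and 0 passing. Over these S phase genes, 2 were higher and 1 lower in LSK at an unadjusted p under 0.05 by edgeR. Within BM 31 of the 40 were higher in LSK, with a median of 0.044. Within CNS 16 of the 40 were higher, with a median of -0.022. The difference between the 48 members and the S phase list was not tested.

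**Figure D4:**
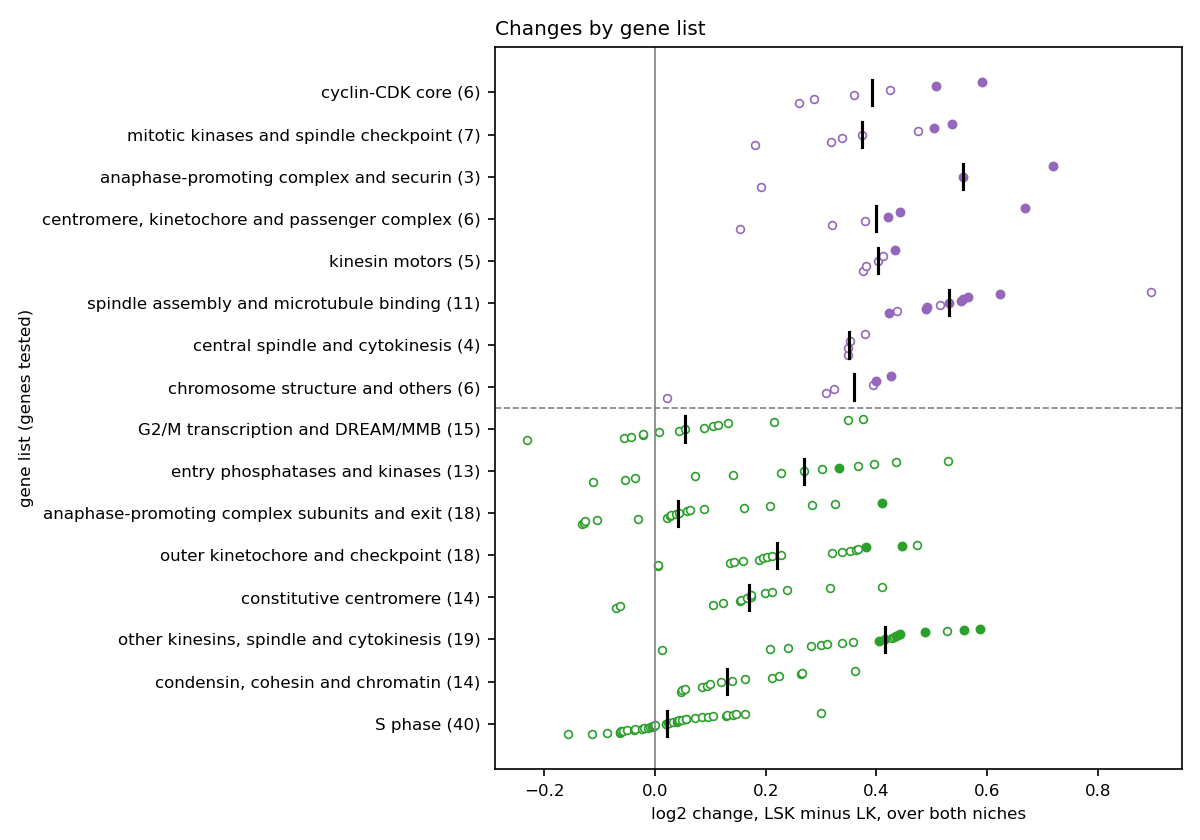
The plot of gene lists shows the log2 change from LK to LSK over both niches (x axis) of each tested gene as a point, by list (y axis), filled where it passed, with a black bar at the list's median. The 8 role groups of the 48 members lie above the dashed line with medians from 0.35 to 0.56, and the other lists lie below it, from 0.021 for S phase to 0.42 for other kinesins, spindle and cytokinesis.

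The members varied together among the LSK stems. Averaged over the 48 genes as log2 CPM (prior count 2), each centred on its mean over the 16 libraries, the score was 0.40 in LSK 1, -0.041 in LSK 2, 0.34 in LSK 3 and 0.13 in LSK 4. The LK stems lay close to each other, at -0.21, -0.20, -0.24 and -0.18. LSK 2 was the lowest LSK stem in 44 of the 48 members, against 20.9% of all identifiers, and LSK 1 the highest in 34 of the 48, against 27.1%. For Cenpf the stem means were 295, 192, 272 and 212 CPM in LSK 1 to 4 and 148, 155, 140.2 and 168 CPM in LK 1 to 4. For Mki67 they were 1469, 1132, 1409.9 and 1295 CPM in LSK and 996, 1013, 986 and 1030.0 CPM in LK. Both genes had their lowest LSK stem in LSK 2, and in both it still lay above every LK stem. The S phase score was also lowest in LSK 2 among the LSK stems, at 0.079, -0.16, 0.039 and 0.090 in LSK 1 to 4. It was -0.084, 0.012, 0.033 and -0.0057 in LK 1 to 4. In this score LSK 1, 3 and 4 thus lay above every LK stem, and LSK 2 below them all. The LSK 2 libraries also had the most identifiers with a count among the LSK libraries of each tissue, 44612 in BM and 46067 in CNS, and the part of this in their lower values was not tested. The 48 genes together took 0.538% ± 0.042 of the counts in BM LSK, 0.555% ± 0.096 in CNS LSK, 0.411% ± 0.023 in BM LK and 0.416% ± 0.051 in CNS LK (SD, n = 4 each).

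**Figure D5:**
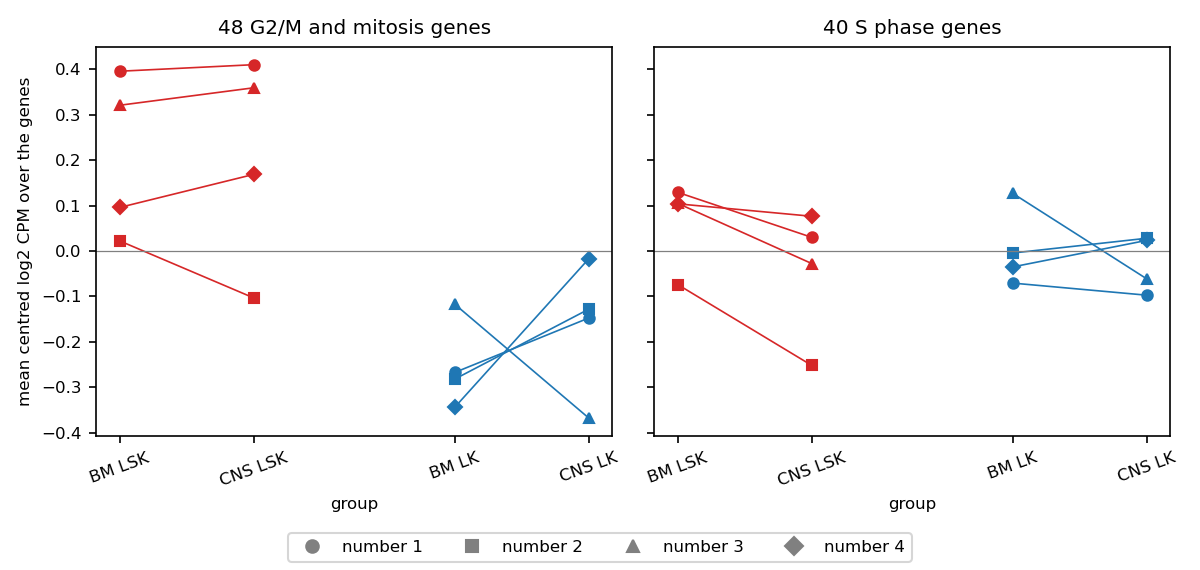
The plot of scores sets, for each of the 16 libraries, the mean centred log2 level of the 48 members beside that of the S phase genes, with a line joining the BM and CNS library of each stem. The member score of the LSK libraries runs from -0.10 in CNS LSK 2 to 0.41 in CNS LSK 1, and that of the LK libraries from -0.37 to -0.017.

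The niche comparison asks whether the same LPC type differs between CNS and BM. For the G2/M and mitosis genes 0 of 48 passed by edgeR over both LPC types, as did 0% of all identifiers, and DESeq2 and limma-voom also called 0. The changes from BM to CNS had a median of 0.032, with 35 of the 48 positive against 50% of all identifiers, and lay between -0.057 and 0.51. At an unadjusted p under 0.05 there was 1 member higher in CNS, Cenpa, against 6.55% of all identifiers, and 0 lower, against 2.6%. Within LSK 22 of the 48 were positive, with a median of -0.001, and within LK 41 of the 48, with a median of 0.080. Of all identifiers 51.3% were positive within LSK and 51.5% within LK. Both within-type comparisons had 0 members at an adjusted p under 0.05 and 0 at an unadjusted p under 0.05 by edgeR, and DESeq2 and limma-voom called 0 in each. Among all identifiers, 0% passed in either comparison after adjustment, and 5.74% within LSK and 3.99% within LK had an unadjusted p under 0.05.

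Cenpa had the smallest p of the members between the niches. It stood at 44.1, 35.4, 41.4 and 37.7 CPM in BM LSK and 46.6, 38.1, 46.3 and 46.3 CPM in CNS LSK. In LK it stood at 26.9, 33.5, 27.6 and 26.3 CPM in BM and 30.4, 38.8, 24.8 and 38.8 CPM in CNS. The CNS library was above the BM library in all 4 LSK stems and in 3 of the 4 LK stems. The change over both types was 0.19 ± 0.087 (SE), with an unadjusted p of 0.0422 and an adjusted p of 0.527 by edgeR. No member had its CNS library above its BM library in all 8 stems, a pattern found in 1.49% of all identifiers, and none had the reverse in all 8, found in 1.45%. Ube2c, Mki67 and Plk1 had changes from BM to CNS of 0.17 ± 0.097 (SE), -0.0057 ± 0.076 (SE) and -0.032 ± 0.10 (SE), with adjusted p of 0.647, 0.996 and 0.973 by edgeR.

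The LK stems moved in different directions between the niches. The member score in CNS minus that in BM was 0.12 in LK 1, 0.15 in LK 2, -0.25 in LK 3 and 0.33 in LK 4, and 0.014, -0.13, 0.038 and 0.073 in LSK 1 to 4. CNS LK 4 was thus the LK library with the highest member score, and CNS LK 3 the lowest. The S phase list had 3 of 40 genes higher in CNS, with a median of -0.068 and 0 passing by edgeR, which called 0 of the 40 at an unadjusted p under 0.05 as well. Of 34 tested markers in the 8 cell type lists, 27 were higher in CNS and 0 passed by edgeR. At an unadjusted p under 0.05, 8 of the 34 were higher and 1 lower in CNS. Of all identifiers 50% were higher in CNS, and 6.55% were higher and 2.6% lower at that p. The summed level of 8 microglia and brain macrophage genes was 4.76 to 7.25 CPM in BM libraries and 5.66 to 8.07 CPM in CNS libraries, and Tmem119 and P2ry12, which define microglia, had group means of at most 0.298 CPM. The 12 myeloid genes summed to 2.12 to 7.52 CPM over all libraries, with S100a8 at 0 in BM LSK, and 4 of the 4 tested were higher in CNS. The part of these markers in the members' values was not tested.

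The difference between the niche effects of the LPC types was tested as an interaction, the change from BM to CNS in LSK minus that in LK. It was negative for 42 of the 48 members, with a median of -0.064. Over all identifiers the median was -0.007 and 48.3% were positive. By edgeR 0 members and 0% of identifiers passed. DESeq2 and limma-voom called 0. At an unadjusted p under 0.05 there was 1 member with a negative value, Cks2, against 0.583% of all identifiers. Cks2 stood at 30.2, 23.2, 28.0 and 23.5 CPM in BM LSK and 26.5, 20.7, 26.5 and 22.4 CPM in CNS LSK. In LK it stood at 18.8, 19.4, 20.4 and 18.1 CPM in BM and 22.5, 22.1, 20.2 and 23.4 CPM in CNS. The CNS library was the lower in all 4 LSK stems and the higher in 3 of the 4 LK stems. The interaction was -0.33 ± 0.14 (SE) on the log2 scale, with an unadjusted p of 0.0312 and an adjusted p of 1.00 by edgeR, so it was not called.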

How the data were processed

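RNA was measured in 16 bulk libraries, 4 in each of 4 groups set by tissue and LPC type. The authors deposited whole-number counts per Ensembl gene, made from stranded total RNA libraries for small inputs (kit per the labels' protocols). The submitters' processing notes name GRCm39 and DESeq2, and the aligner, counter and annotation are not given in the sources used here. The table's name says normalised. Its totals differed between libraries, however, and DESeq2's size factors spanned 0.804 to 1.302, and the values were used as raw counts. Identifiers without a symbol held 41.8% of the counts. All columns matched a sample.

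Counts were fitted with edgeR 4.0.16 in R 4.3.3 (TMM, quasi-likelihood, 4 group means, 7 contrasts, two-sided, Benjamini-Hochberg adjustment over the 18878 identifiers averaging 10 counts or more, threshold 0.05). Each SE printed is the absolute log2 change divided by the square root of the F of its test, and was not estimated separately. It thus rests on the same independence of libraries as the p-value. Alternatives used DESeq2 1.42.0 and limma 3.58.1, other filters and scalings, blocks, summed stems and left-out libraries. The fits were tested on simulated data. For LSK against LK the simulated libraries had no stem effect, so these tests cannot show how the fits behave when libraries of a stem correlate. Replicates of a group differed by more than sampling noise, with a chi-square of 10.7 to 41.6 per degree of freedom. Copies were annotated transcripts with at least 95% identity over at least 300 bases on either strand, and the strand of a match was not kept.

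The 48 members and all other lists were chosen with earlier results of these data known. Values in every library are given for Ube2c, Fam83d and Kpna2, for the member with the smallest p (LSK against LK) and that with the highest mean level in each role group, and for the smallest p in the niche comparison and in the interaction. Beyond these, only the other lists' genes that passed, or had their list's smallest p, were to be named, and some of these are not reported here. Genes named as a copy, a marker or an extreme of a range, and members given by their change, come beside that rule. The covariate fit and the fits without both libraries of a stem were added after the data had been seen.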

Additional observations from a re-analysis of the deposited data

Results flagged for a closer look

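Values of the 15 genes given in every library and of 2 scores were examined in each group of 4 for a library far from the other 3, by Dixon's test at the 95% level. This was found in 7 of 68 groups, where chance gives about 1 in 20, or 3.4. CNS LSK 2 was low for Cenpa (38.1 CPM against 46.3 to 46.6), Plk1 (26.3 CPM against 39.6 to 42.1) and Tpx2 (93.0 CPM against 127 to 130.1). BM LK 3 was high for Kif20a (39.8 CPM against 28.0 to 28.7), Racgap1 (64.0 CPM against 52.5 to 54.0) and Tpx2 (94.7 CPM against 75.8 to 77.8). The S phase score of BM LSK 2 was -0.074, against 0.10 to 0.13 in the other BM LSK libraries.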

How the results depend on the processing

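For LSK against LK over both niches, 20 members passed, all higher in LSK, and the count was within 1.5 times of that in 12 of 39 alternatives. It was 34 without a filter on low counts, 41 by DESeq2, 35 with a replicate block on the title number, 5 with stem as a random block, 0 with stems summed, and 0 with stems summed and a replicate block on the title number. It was 12 with the number of identifiers with a count as a covariate. Leaving out 1 library, both libraries of a stem or all libraries of a number gave from 0 to 40 calls, the last without CNS LSK 2 or without both LSK 2 libraries. Within BM (0 calls) the count was 13 without a filter, 14 by DESeq2 and 0 to 1 with libraries left out. Within CNS (0 calls) it was 4 without a filter, 2 by DESeq2 and 0 to 1 with libraries left out. The niche comparisons and the interaction gave 0 calls in each of their 28 alternatives. Apart from the summed stems, the shares of all identifiers called in the alternatives for LSK against LK are not given here. These counts thus do not show whether the members moved apart from other identifiers. The cause of the differences between the counts was not tested.

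Smc4 turned sign in 7 alternatives: -0.0352 without a filter, -0.00916 without BM LK 1, -0.00534 without CNS LK 1, -0.0272 without BM LSK 4, -0.0209 without number 1, -0.0356 without both LK 1 libraries and -0.0247 without both LSK 4 libraries. Its highest value was 0.0996, without both LK 4 libraries, and with 1 library left out 0.0629, without CNS LK 4. The other 47 members kept their sign in every alternative that tested them, 39 each but 38 for Psrc1, which the minimum of 50 counts left out.

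The deviations of the BM and CNS libraries of a stem correlated over 0.1 in 6 of 8 stems (median 0.20) over identifiers averaging 10 counts or more. Over those averaging 50 or more, all 8 stems did (median 0.43, lowest 0.34). Those of LSK and LK libraries of a number did so in 4 of 8 pairs (median 0.078) at the lower count minimum and in 6 of 8 (median 0.22) at the higher. BM and CNS libraries of different stems of a type had a median of -0.054 at the lower minimum and -0.18 at the higher. LSK and LK libraries of different numbers in the same tissue had a median of 0.0072 at the lower minimum and -0.12 at the higher. The LSK and LK codes of a number also begin with the same digits. Whether a number links its LSK and LK libraries is not stated in the labels. The main fit did not take the numbers to pair LSK with LK libraries. A correlation over 0.1 in all 8 stems was seen only at the higher count minimum. The fit of all 16 libraries did not allow for correlation within a stem, so its p-values for LSK against LK count correlated libraries as independent. A replicate block on the stem changed no call in the niche comparisons. Depth limits Psrc1, Pttg1 and Cdkn3 most, with mean counts of 28.8, 70.9 and 96.6.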
